A study of Drosophila melanogaster with 18 samples.

Results

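The genes described here are named after protein components of the cytosolic ribosome in Drosophila. They are the 92 genes of 17609 whose symbol begins with RpL or RpS followed by a digit or the letter P. Of these, 65 were the only gene of their name, and 27 belonged to 13 families of more than 1 gene. Within a family the gene with the highest mean level per kilobase was called the main gene and the others minor paralogs, which gave 13 main genes and 14 minor paralogs. The 78 single or main genes comprised 47 of the large subunit and 31 of the small subunit. Messenger RNA was sequenced in S2 cells, a cultured line of embryonic origin with macrophage-like traits, in 9 groups of 2 libraries. Wild type cells received no CuSO4 or 40, 100 or 1000 µM. The S2-Zld, S2-Grh and S2-Twi cells carry a transgene for the transcription factor Zelda, Grainy head or Twist, and copper added to the medium induces it. The S2-Zld and S2-Grh cells were sequenced untreated and induced, and the S2-Twi cells were sequenced at 40 µM CuSO4, with no untreated group among the libraries used. All cells were harvested 48 h after induction. The labels print the induced dose as 1000 mM for S2-Zld and 100 mM for S2-Grh, whereas the wild type doses are printed in µM. Groups were matched by the printed number, and their unit could not be settled. The labels do not state which promoter drives the transgenes, whether a line is 1 clone, or whether the replicates are separate cultures, so each p-value measures the spread between these samples.

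A ribosome holds 1 copy of nearly every one of these proteins, and cells make them in matched amounts. Their genes are short, very active and scattered over the chromosomes. In flies, loss of 1 copy of many of them slows growth and gives the Minute phenotype of thin bristles. Several genes have a second copy. In Drosophila some of these copies, among them RpS5b, RpS19b, RpS10a and RpL22-like, are known mainly from the gonads. Others, such as RpL24-like and RpLP0-like, resemble yeast proteins that act in assembly of the large subunit and are not stable parts of it.

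The libraries held 10459648 to 28575923 counted reads, and 3 reads in a library corresponded to a CPM (reads of a gene per 1e6 counted reads) of 0.105 to 0.287. Replicates differed by more than counting noise in every group, with a chi-square per degree of freedom of 2.09 to 41.2 over genes in general. For the ribosomal protein genes alone it was 17.1 to 193.6. At an equal relative spread this measure grows with the reads of a gene, so these ranges cannot be compared directly. All 10 markers of the plasmatocyte, the macrophage-like blood cell that S2 cells resemble, had reads in every library, and their summed level ran from 2355 to 6922 CPM. Of 9 germline markers the summed level ran from 47.1 to 169.8 CPM. Most of this came from aub, a piwi-family gene with 42.0 to 145.0 CPM, while vas, which encodes the germline RNA helicase Vasa, did not exceed 0.926 CPM and had no read in 1 library. The germline genes can and aly each had no read in 9 of 18 libraries. Each transgene was highest in its induced line, at up to 5503 CPM of zld, 1014 of grh and 1957 of twi. Without copper the lines already had such reads. The mean of zld was 260 CPM in untreated Zld against 8.75 in untreated wild type, and that of grh was 40.4 CPM in untreated Grh against 0.606.

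The ribosomal protein genes took 16.1% to 24.4% of all counted reads, and nearly all of this came from the single and main genes, which gathered 63714512 reads against 484851 for the minor paralogs. On the scale of CPM per kilobase of gene length, the mean level of the 78 single and main genes over the 18 libraries had a median of 2428, and 76 of them were at 1000 or more. Among the highest levels were 5631 for RpL21, 5419 for RpLP2, a protein of the stalk that recruits elongation factors, 4971 for RpS3, which lies at the mRNA entry of the small subunit, and 4805 for RpS27A, which is made as a fusion with ubiquitin. The lowest 5 were 735 for RpL22, 751 for RpS21, 1043 for RpL37A, 1181 for RpL28 and 1191 for RpS14a. The value of RpL22 is uncertain because 34.3% of its exonic bases also lie in a long noncoding RNA gene, and 19.7% of those of RpL37A lie in an antisense gene. Per the labels the libraries were made with the TruSeq RNA v2 kit, which does not mark strand, so reads there cannot be told apart by strand.

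The classes of genes differed in position and structure. Of the 13 main genes, 8 lay on the X chromosome, against 5 of the 65 single genes and 1 of the 14 minor paralogs. The minor paralogs lay mostly on the autosomal arms 3R, with 7, and 2R, with 4. Of the 269 small nucleolar RNA (snoRNA) genes in the annotation, 74 lay inside 28 of the single and main genes, and none lay inside a minor paralog. RpS5a alone, the main gene of its family, held 14. A single exon block was found in 5 of the 14 minor paralogs, RpL10Aa, RpL37-2, RpS10a, RpS15Ab and RpS28a, and in 1 of the 78 others. The deposited length of the single and main genes had a median of 935.5 bases, against 1432 bases for all other genes.

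The minor paralogs formed 3 tiers of level. RpL34a, RpS14b and RpL24-like were at 668, 666 and 641 CPM per kilobase, which was below the 78 single and main genes but within 2.44 times of the main gene of their own family. The main gene was 2.44 times higher per kilobase for RpL34b, 1.79 times for RpS14a and 2.39 times for RpL24. Of the exonic bases of RpL24, 21.6% also lie in CG7099, so its ratio is uncertain. RpLP0-like, RpS15Ab and RpS19b were at 108.8, 85.0 and 29.1 CPM per kilobase, and their main genes RpLP0, RpS15Aa and RpS19a were 20.1, 25.6 and 45.2 times higher. RpS10a and RpS5b were at 2.26 and 2.01 CPM per kilobase, 576 and 755 times below RpS10b and RpS5a.

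The other 6 minor paralogs had next to no reads in these cells, and none passed the filter on low counts in any comparison. RpL22-like had 27 reads over all 18 libraries, RpL37-2 had 13, RpS28a 10, RpS28-like 6, RpL7-like 4 and RpL10Aa 2. The share of RpL22-like in the reads of the RpL22 pair was 0.0102% (95% Clopper-Pearson interval 0.00675% to 0.0149%). Of its 27 reads, 10 were in the induced Twi line, with 5 in each library, and no library of another group had more than 4. RpL7-like shares 98.8% of its exonic bases with CG34164, so its 4 reads do not give its level. How reads in bases shared by 2 genes were counted is not given, and such reads may be left out or belong to the other gene. Intervals and floors cover counting error only, because the reads carry no molecular identifiers.

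**Figure D1:**
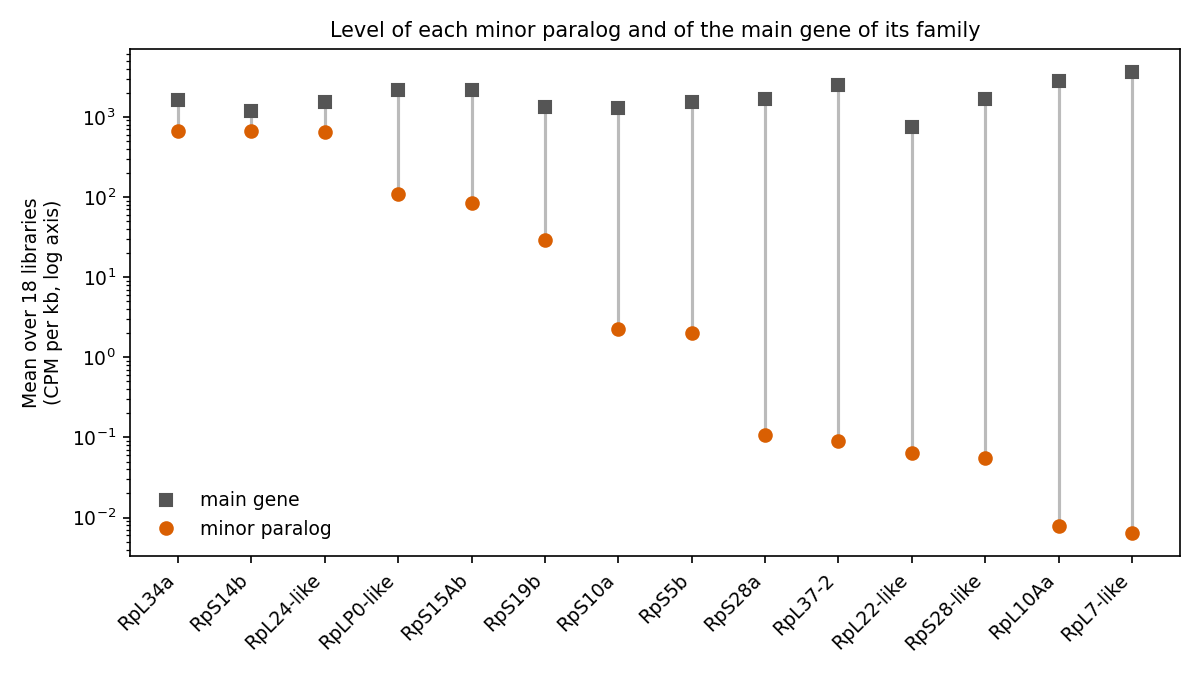
Mean level of the 14 minor paralogs (circles) and of the main gene of the same family (squares) over 18 libraries, in CPM per kilobase on a log axis. All main genes lie at 735 or more, whereas the minor paralogs run from 668 for RpL34a to 0.00649 for RpL7-like. The value of RpL7-like is uncertain because 98.8% of its exonic bases are shared with another gene.

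RpS14a and RpS14b, which encode the same small-subunit protein, lie side by side on the X chromosome on the plus strand of dm6. RpS14a spans positions 7933742 to 7934677 and RpS14b spans 7934898 to 7935792. Because the copies are nearly identical, the split of reads between them depends on how multi-mapping reads were counted, which the sources used here do not give. As counted, RpS14b took 31.9% to 40.3% of the level of the pair per kilobase in the 18 libraries. Some other families are spread over chromosomes, whereas RpL34a and RpL34b are both on 3R and RpL7 and RpL7-like both on 2L. RpS19a is on X (16637894 to 16639249, plus strand) and RpS19b on 3R (23932729 to 23933530, minus strand), RpS5a is on X (17143588 to 17148264, minus) and RpS5b on 3R (14900432 to 14901563, minus), and RpS10b is on X (19598031 to 19599806, plus) and RpS10a on 3R (27652760 to 27653363, plus).

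The summed level of the 92 genes differed between groups. It was 19.5% and 20.2% of all reads in the untreated wild type libraries. Wild type cells had 17.2% and 16.8% at 40 µM, 16.1% and 16.9% at 100 µM, and 18.3% and 18.01% at 1000 µM copper. All 6 libraries of wild type with copper were thus below both untreated ones. The Zld line had 20.5% and 22.8% untreated and 23.0% and 22.4% induced. The Grh line had 22.9% and 22.8% untreated and 24.4% and 23.1% induced. All 8 libraries of these lines, with or without copper, were above untreated wild type, the lowest by a narrow margin. The induced Twi line had 16.7% in both libraries, between the values of wild type at 100 µM and below both at 40 µM.

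From low to high the group means were 16.5% ± 0.558 in wild type at 100 µM, 16.7% ± 0.00598 in induced Twi, 17.0% ± 0.233 in wild type at 40 µM, 18.1% ± 0.180 at 1000 µM and 19.8% ± 0.465 untreated. They continued with 21.6% ± 1.64 in untreated Zld, 22.7% ± 0.375 in induced Zld, 22.9% ± 0.0479 in untreated Grh and 23.8% ± 0.945 in induced Grh (SD, n = 2 each). The libraries of wild type at 100 µM overlapped those of induced Twi and of wild type at 40 µM. Untreated and induced Zld also overlapped, untreated Grh lay within the values of induced Zld, and both induced Grh libraries were above all others. With 2 libraries against 2 the smallest two-sided p of an exact permutation test is 0.333, so these levels are descriptions. In bulk RNA a lower level per cell and fewer cells that express a gene cannot be told apart.

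**Figure D2:**
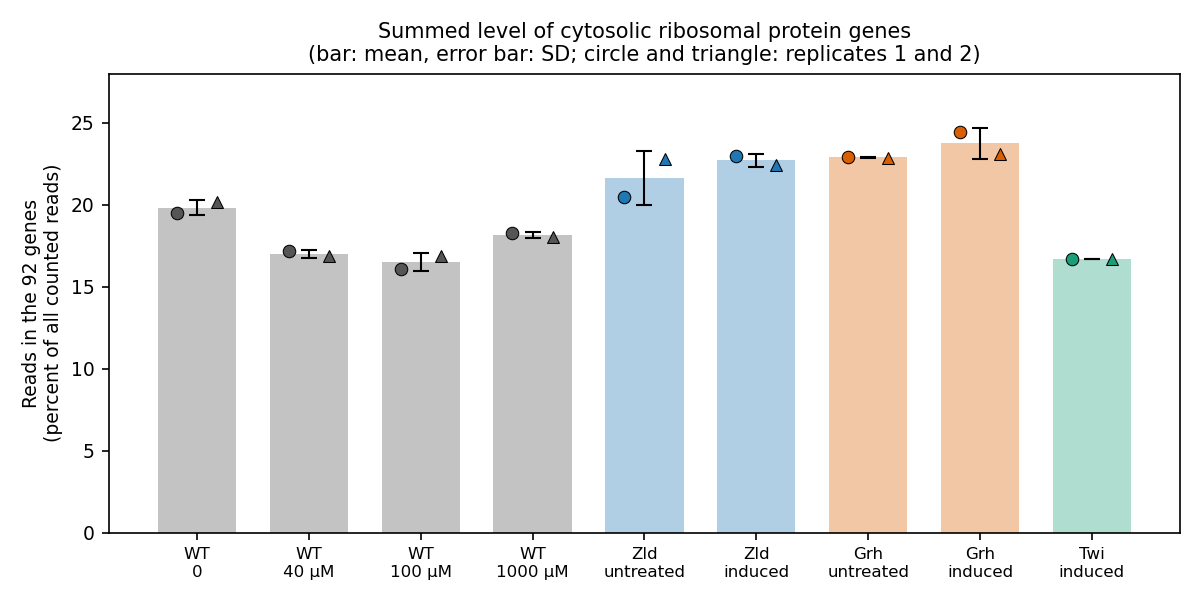
Reads in the 92 ribosomal protein genes as a percent of all counted reads in each of 18 libraries (points), with the group mean (bar) and SD (error bar, n = 2). The 6 wild type libraries with copper and the 2 induced Twi libraries lie at 16.1% to 18.3%, and the 8 libraries of the Zld and Grh lines lie at 20.5% to 24.4%.

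Copper alone was tested in wild type cells. At 100 µM, 70 of the 86 genes tested fell and 2 rose against untreated wild type, while 27% of all tested genes fell and 25.4% rose (52.5% called in all). The median log2 change of the 78 single and main genes was -0.35, against -0.02 for all 8788 genes. The medians were -0.33 for the large and -0.39 for the small subunit. Changes of expression were tested with edgeR's quasi-likelihood test at an adjusted p under 0.05 (Benjamini-Hochberg over all genes tested). The gene that fell most among the single and main genes was RpL39, a very short protein of the exit tunnel. It had 932 and 920 CPM untreated and 498 and 495 CPM at 100 µM. The groups lay far apart, and the log2 change was -0.93 ± 0.06 (SE, adjusted p = 1.12e-09). RpS16, a small-subunit protein, had 1512 and 1564 CPM untreated and 907 and 977 CPM at 100 µM, a change of -0.73 ± 0.06 (adjusted p = 4.92e-08). RpS27A was the only single or main gene that rose, from 2770 and 2698 CPM to 3120 and 3120 CPM. Its log2 change was 0.16 ± 0.06 (adjusted p = 0.0413), and this call was lost whichever of the 4 libraries was left out (replicate 1 or 2 of untreated wild type or of wild type at 100 µM), which left 1 gene called higher, RpS5b.

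At 40 µM, 38 of 86 genes fell and 3 rose, where 19.7% of all tested genes fell and 20.8% rose (40.5% in all). The median log2 change of the single and main genes was -0.23. The largest falls among them were in RpL31 and RpL8, proteins of the large subunit. RpL31 had 2109 and 2245 CPM untreated and 1425 and 1265 CPM at 40 µM, a log2 change of -0.65 ± 0.09 (adjusted p = 0.00197). RpL8 had a log2 change of -0.57 ± 0.08 (adjusted p = 0.00242). RpL12, which sits at the base of the stalk, moved the other way. It had 1711 and 1707 CPM untreated and 2296 and 2128 CPM at 40 µM, so the groups did not overlap, and the log2 change was 0.42 ± 0.08 (adjusted p = 0.00623). RpL15 and RpL10 rose by 0.28 ± 0.06 and 0.26 ± 0.07 (adjusted p = 0.0106 and 0.0177). The number that fell was 18 without replicate 1 and 9 without replicate 2 of untreated wild type, and none rose without either, so the calls of RpL12, RpL15 and RpL10 were lost there.

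At 1000 µM, the highest dose, 10 of 86 genes fell and none rose, near the background of 13.9% lower, with 15.3% of all genes higher. No member rose at an unadjusted p under 0.05 either, and DESeq2 also called 0 higher. The median log2 change of the single and main genes was -0.11, or -0.07 without replicate 2 of untreated wild type. The falls were led by RpS19b (-0.41 ± 0.10, adjusted p = 0.0108), RpL24-like (-0.40 ± 0.08, adjusted p = 0.00276) and RpS28b (-0.33 ± 0.08, adjusted p = 0.0064). RpS28b, a small-subunit protein, had 1650 and 1584 CPM untreated and 1293 and 1243 CPM at 1000 µM, with no overlap. The count of 10 became 2 without replicate 1 or 2 of untreated wild type, and 4 and 1 without replicate 1 and 2 at 1000 µM, and it was 29 with no filter on low counts. The 3 copper comparisons share the untreated wild type libraries, and the doses were not compared with each other by a test.

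The lines were next compared with wild type in the absence of copper, where zld and grh were already above wild type in their lines. In the untreated Grh line, 69 of 86 genes were higher and 2 lower than in untreated wild type, where 11.7% of all tested genes were higher and 12% lower (23.7% in all). The median log2 difference of the single and main genes was 0.31, and 77 of the 78 were positive. RpS16 had 2106 and 2180 CPM in the untreated Grh line, above both untreated wild type libraries, and differed by 0.58 ± 0.06 on the log2 scale (adjusted p = 2.61e-06). RpS19a and RpL23 were higher by 0.53 ± 0.07 and 0.52 ± 0.06 (adjusted p = 2.19e-05 and 1.19e-05). The only single or main gene on the negative side was RpL35, with 3098 and 2870 CPM against 3611 and 3587 CPM in wild type, a log2 difference of -0.17 ± 0.07 that was not called (adjusted p = 0.0829). It was lower at an unadjusted p under 0.05. The 2 genes that edgeR called lower were both minor paralogs, RpS10a and RpS19b, and DESeq2, library size alone and no filter on low counts each called 1 single or main gene lower as well. Without replicate 1 of untreated wild type, 40 genes were higher.

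In the untreated Zld line, 29 of 86 genes were higher and none lower, with 10.4% of all genes higher and 10.2% lower. At an unadjusted p under 0.05, edgeR put 47 members higher and 2 lower, and DESeq2 called 44 higher and 0 lower. The median log2 difference of the single and main genes was 0.22, and 73 of 78 were positive. The largest differences were in RpS20, RpL41 and RpS29. RpS20 had 1346 and 1404 CPM against 1018 and 1034 CPM in wild type, a log2 difference of 0.51 ± 0.06 (adjusted p = 0.000196). RpL41, the smallest ribosomal protein, and RpS29 were each higher by 0.50 ± 0.06 (adjusted p = 0.000271 and 0.00025). The libraries did not overlap for any of these 3 genes. The count depended on single libraries. It was 10 and 12 without replicate 1 and 2 of untreated wild type and 71 without replicate 1 of untreated Zld, and 7 genes were lower without replicate 2 of untreated Zld. With library size alone in place of TMM factors, 19 members were higher and 4 lower, and the median of all tested genes was then -0.10 and that of the single and main genes 0.13. The median of the single and main genes was 0.098 without replicate 2 of untreated Zld.

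Few of these genes were called when each induced line was compared with its own untreated state. That state already had reads of zld or grh above those of untreated wild type, as given above. In the induced Grh line 2 of 85 genes rose against the untreated line and none fell, while 16.7% of all tested genes rose and 10.6% fell. DESeq2 called 6 higher and 0 lower, and at an unadjusted p under 0.05 edgeR put 8 higher and 0 lower. RpL24-like had 531 and 555 CPM untreated and 627 and 607 CPM induced, a log2 change of 0.22 ± 0.05 (adjusted p = 0.0061). RpL29 changed by 0.17 ± 0.06 (adjusted p = 0.0384). The median change of the single and main genes was 0.09, and 73 of 78 were positive. That median was 0.0017 and 0.16 without replicate 1 and 2 of the induced line. The count was 0 and 1 without replicate 1 and 2 of the untreated line, and 5 and 22 without replicate 1 and 2 of the induced line. RpL24-like lost its call without replicate 1 of the untreated line, RpL29 kept its call only without replicate 1 of the induced line, and there 1 gene was called lower. Both calls were lost in the fit of all 18 libraries, and that of RpL29 also with RLE factors, library size alone and a replicate block.

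In the induced Zld line 5 of 86 genes rose and 1 fell against the untreated line, where 23% of all tested genes rose and 20.1% fell. The median log2 change of the single and main genes was 0.12, and 62 of 78 were positive. That median was -0.009 and 0.24 without replicate 1 and 2 of untreated Zld. RpS19b rose most (0.92 ± 0.11, adjusted p = 9.24e-05). RpL18 had 1483 and 1820 CPM untreated and 2095 and 2096 CPM induced, a change of 0.37 ± 0.10 (adjusted p = 0.0152), and RpL28 rose by 0.31 ± 0.07 (adjusted p = 0.00591). RpS29 went from 2255 and 2119 CPM to 1831 and 1762 CPM a log2 change of -0.25 ± 0.07 (adjusted p = 0.0155). The number that rose was 57 without replicate 2 of untreated Zld and 2 without replicate 1 or 2 of induced Zld. The number that fell was 10 and 2 without replicate 1 and 2 of untreated Zld and 0 without either induced library.

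Against wild type cells at the same printed copper number the differences were wide. In induced Grh against wild type at 100 µM, 82 of 85 genes were higher and 2 lower, and 33.6% of all tested genes were higher and 27.2% lower. The median log2 difference of the single and main genes was 0.77 and all 78 were positive, from 0.15 for RpS27A to 1.41 for RpS16. RpS16 had 2251 and 2200 CPM in induced Grh, above the 907 and 977 CPM of wild type at 100 µM (log2 difference 1.41 ± 0.07, adjusted p = 7.98e-11). RpL39 had 1032 and 1112 CPM against 498 and 495 CPM, a difference of 1.28 ± 0.06 (adjusted p = 9.6e-11). RpS19a, whose human counterpart is a common target of mutations in Diamond-Blackfan anaemia, differed by 1.17 ± 0.08 (adjusted p = 2.25e-09). The comparison joins the lower level of wild type at 100 µM with the higher level of the Grh line, which are given above with their own tests. Other genes with a mean of at least 100 CPM had a median of -0.04 and other genes of up to 1000 bases a median of 0.12. With library size alone the median of all tested genes was -0.12 and that of the single and main genes 0.60.

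In induced Zld against wild type at 1000 µM, 74 of 86 genes were higher and none lower, while 19.1% of all tested genes were higher and 17.3% lower. DESeq2 called 77 higher and 0 lower, and edgeR put no member lower at an unadjusted p under 0.05. The median log2 difference of the single and main genes was 0.43, and all 78 were positive. The largest was in RpS27, a small-subunit protein with 1915 and 1926 CPM against 1244 and 1269 CPM, a difference of 0.71 ± 0.07 (adjusted p = 3.21e-05). The lowest was 0.08 for RpL13. The count was 37 and 33 without replicate 1 and 2 of wild type at 1000 µM and 40 without replicate 1 of induced Zld. The plasmatocyte markers moved in the same comparison, with 8 of 10 lower and none higher, and their summed level was 4520 ± 25.2 CPM in wild type at 1000 µM and 2808 ± 280.2 CPM in induced Zld (SD, n = 2). Over the other groups this sum was 5291 CPM in untreated wild type, 2929 at 40 µM, 3377 at 100 µM, 4792 in untreated Zld, 4110 and 4159 in untreated and induced Grh and 6036 in induced Twi. Most of the Twi sum was Col4a1 and vkg, at 2384 and 1696 CPM against 131 and 91.1 in untreated wild type. Against untreated wild type other markers went the other way, with Hml, Sr-CI and Pxn at 1.72, 0.316 and 511 CPM against 170, 54.0 and 2829. Wild type at 40 µM, the copper match of induced Twi, had Col4a1 and vkg at 581 and 349 CPM. It had Hml, Sr-CI and Pxn at 12.4, 1.39 and 294 CPM, so Pxn was higher in induced Twi than there. By edgeR, 6 of the 10 were lower and 3 higher in wild type at 100 µM, and 6 lower and 1 higher in untreated Grh, against untreated wild type. Of all tested genes 27% were lower and 25.4% higher at 100 µM, and 12% lower and 11.7% higher in untreated Grh. The part of these markers in the results was not tested.

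In induced Twi against wild type at 40 µM, edgeR called none of 86 genes in either direction, and 6.25% of all tested genes were higher and 4.27% lower. At an unadjusted p under 0.05, 2 members were higher and 9 lower, and DESeq2 called 0 higher and 1 lower. The median log2 difference of the single and main genes was -0.08, from -0.31 for RpL13 to 0.21 for RpS3A, and the median was -0.04 without replicate 1 of wild type at 40 µM and -0.12 without replicate 1 of induced Twi. RpL13 had 1753 and 1645 CPM in induced Twi and 2212 and 1929 CPM in wild type. Without replicate 2 of wild type at 40 µM, or replicate 2 of induced Twi, 1 gene was called lower. Over genes in general, replicates of wild type at 40 µM and induced Twi differed most among the 9 groups, with a chi-square per degree of freedom of 41.2 and 20.4. For the ribosomal protein genes alone the values were 133.2 and 78.3, below the 193.6 of induced Grh and the 166.2 of untreated Zld. This measure also depends on the depth of the libraries, which differed between groups.

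**Figure D3:**
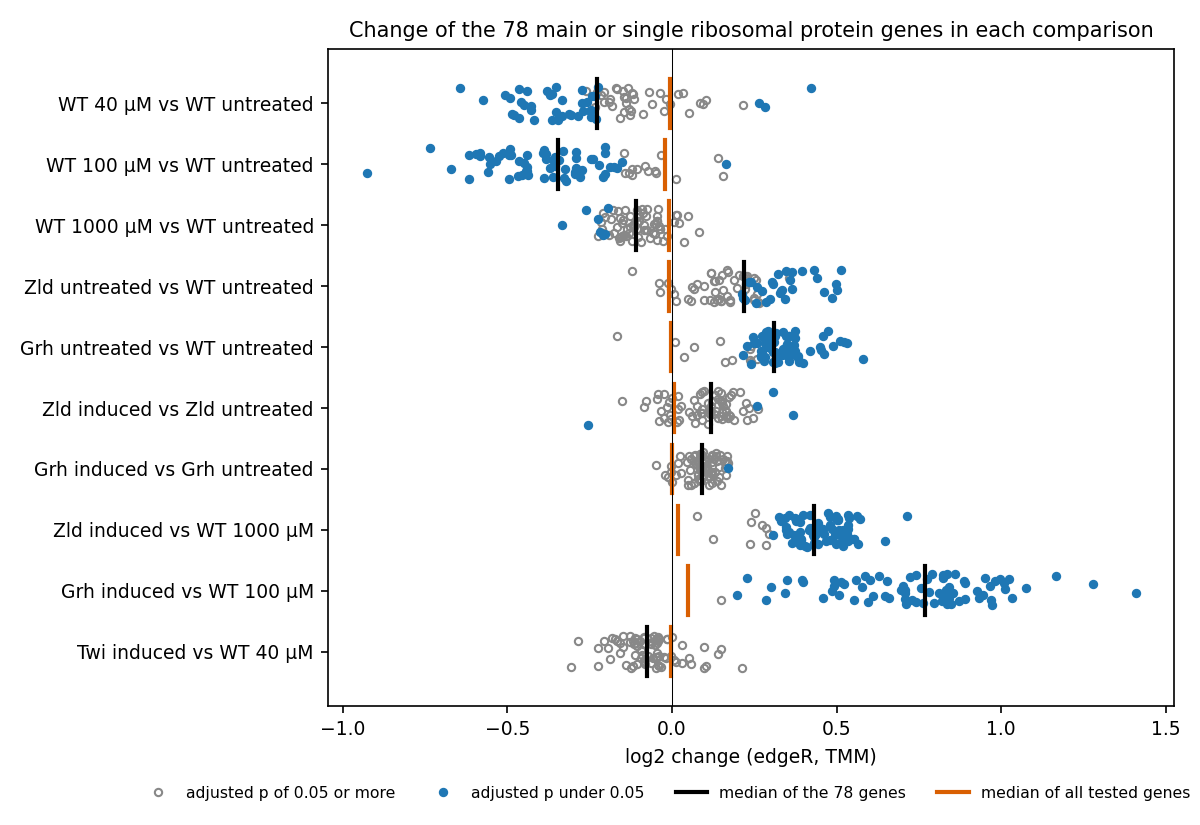
Log2 change of the 78 single and main ribosomal protein genes in 10 comparisons, 1 point per gene, filled where the adjusted p is under 0.05. The black line marks their median, from -0.35 in wild type at 100 µM against untreated to 0.77 in induced Grh against wild type at 100 µM, and the orange line marks the median of all tested genes.

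Whether the log2 difference of a line from wild type changed with copper was tested as an interaction. A positive value means that this signed difference was higher with copper than without, and not that the gap was wider. For Grh, 67 of 86 genes had a positive interaction and 1 a negative one, where 24.1% and 19.2% of all tested genes did, and the median of the single and main genes was 0.42. RpL39 led the single and main genes with 0.97 ± 0.08 (adjusted p = 6.28e-08), followed by RpS16 with 0.82 ± 0.09 (adjusted p = 1.09e-06). For Zld, 4 of 86 genes had a positive interaction and none a negative one, where 5.96% and 6.54% of all tested genes did. The median of the single and main genes was 0.22, against 0.02 for all tested genes, and 76 of 78 were positive. That median was 0.08 and 0.33 without replicate 1 and 2 of untreated Zld. At an unadjusted p under 0.05 edgeR put 26 members higher and 0 lower, and DESeq2 called 10 higher and 0 lower. Of the 4, RpS19b had 1.34 ± 0.15 (adjusted p = 0.000113), RpL24-like 0.43 ± 0.11 (adjusted p = 0.0252) and RpS9 0.40 ± 0.12 (adjusted p = 0.0446). Of the exonic bases of RpS9, 50.3% also lie in an antisense gene. The count for Zld was 1 without replicate 1 or 2 of untreated wild type or of wild type at 1000 µM, 8 and 63 without replicate 1 and 2 of untreated Zld, and 1 and 2 without replicate 1 and 2 of induced Zld. It was 36 with no filter on low counts.

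The differences of the induced lines from wild type at the same printed copper number were also compared, and are called the Zld, Grh and Twi effects here. They include any difference of a line from wild type that was present without induction. The Zld effect was lower than the Grh effect in 38 of 86 genes and higher in 6, where 20.6% and 22% of all tested genes were, with a median of -0.29 for the single and main genes. RpL39, RpS16 and RpS19a had the largest negative differences (-0.81 ± 0.09, -0.81 ± 0.09 and -0.70 ± 0.14, adjusted p = 3.15e-06, 4.22e-06 and 0.000853). RpL21 was higher by 0.41 ± 0.10 (adjusted p = 0.00337). The Zld effect exceeded the Twi effect in 65 of 86 genes and was lower in none, against 11.1% and 10% of all tested genes. DESeq2 called 75 higher and 0 lower there, and edgeR put 79 higher and 1 lower at an unadjusted p under 0.05. RpS27 and RpL21 had differences of 0.79 ± 0.10 and 0.72 ± 0.10 (adjusted p = 1.81e-05 and 5.79e-05). The Grh effect exceeded the Twi effect in 78 genes and was lower in 2, against 18.5% and 21.6% of all tested genes (40.1% in all), led by RpS16 with 1.52 ± 0.09, RpS19a with 1.26 ± 0.14 and RpL9 with 1.17 ± 0.10 (adjusted p = 3.43e-09, 2.59e-06 and 1.87e-07).

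Single libraries moved some of these counts. The 38 genes with a lower Zld than Grh effect became 17 without replicate 1 of wild type at 100 µM, 23 without replicate 1 of wild type at 1000 µM and 16 without replicate 1 of induced Grh. The 6 with a higher effect became 3 without replicate 1 of induced Zld or of induced Grh. The 65 genes of Zld against Twi became 43 without replicate 2 of wild type at 1000 µM. The 2 genes of Grh against Twi that were lower became 1 without replicate 2 of wild type at 100 µM or of induced Twi. Each difference takes in the copper controls of both factors, and any difference of the lines from wild type without induction.

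Relative to the median of the 78 single and main genes in the same library, most kept their place. The range of a gene's relative log2 CPM level over the 9 group means had a median of 0.30, and it was under 0.5 in 63 of 78 genes and over 1 in 1 gene, RpL39. The genes with the widest ranges were then, in order, RpL39, RpL12, RpL35, RpL15, RpL5, RpL10, RpS3A, RpS27A, RpL21 and RpS16. The relative level of RpS27A and RpL21 was highest in wild type at 100 µM, that of RpS16 in untreated Grh, and that of the other 7 in induced Twi. On the relative log2 CPM scale, RpL39 was at -1.28 in untreated wild type, -0.90 at 40 µM, -1.83 at 100 µM and -1.17 at 1000 µM, with -0.67 in induced Twi. Its low value at 100 µM thus had no counterpart at the lower or the higher dose.

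RpL12 and RpL39 are neighbours on 2R whose ends overlap by a few bases, RpL12 on the plus strand (24060378 to 24061860) and RpL39 on the minus strand (24061853 to 24062431). RpL12 was at a relative log2 CPM level of -0.40 in untreated wild type, 0.30 at 40 µM, -0.15 at 100 µM and -0.40 at 1000 µM, with 0.49 in induced Twi and between -0.49 and -0.23 in the Zld and Grh groups. RpL35, a protein at the exit of the tunnel, was at 0.18 in both Grh groups, below the 0.56 to 1.05 of the 7 other groups. RpL5, which binds a small ribosomal RNA together with RpL11, was at 2.32 in untreated wild type and 3.05 in induced Twi. RpS3A, encoded on chromosome 4, was at 0.49 in untreated wild type, 1.03 at 100 µM and 1.17 in induced Twi. RpS16 was at -0.55 in untreated wild type, -0.91 at 100 µM, -0.84 in induced Twi and -0.29 in untreated Grh.

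**Figure D4:**
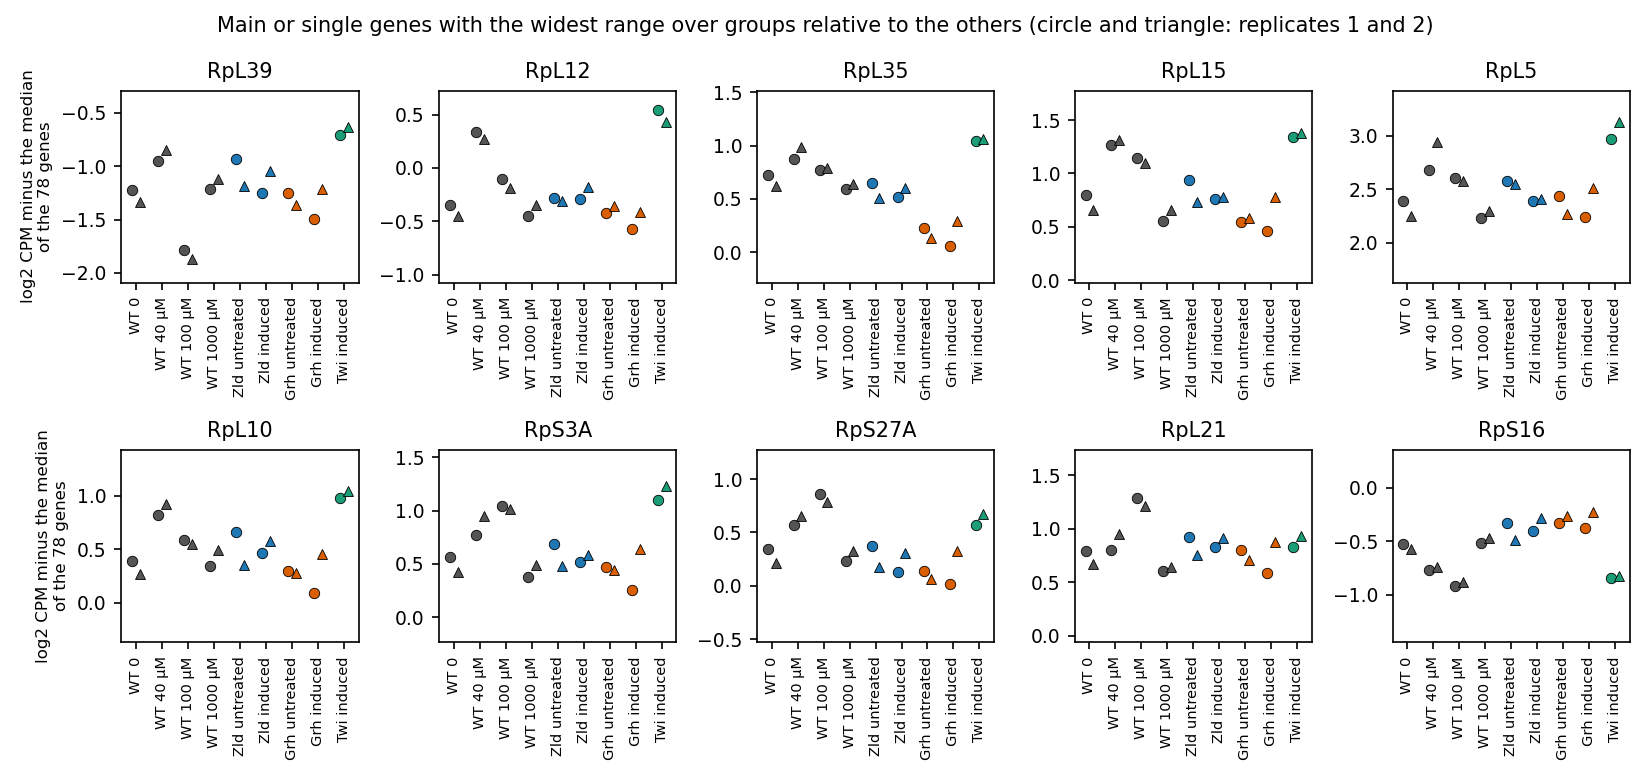
Relative log2 CPM level (gene minus the median of the 78 single and main genes of the same library) in 18 libraries for the 10 genes with the widest range over groups, on axes of equal height. RpL39 is lowest in wild type at 100 µM (-1.83), RpL35 is lowest in the Grh line (0.18), and RpL12, RpL15, RpL5, RpL10 and RpS3A are highest in induced Twi.

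The minor paralogs that were expressed did not all follow their main genes. RpL34a and, as counted, RpS14b did so closely. Over the 9 group means, the Pearson correlation of log2 CPM (plus 0.5) with the main gene was 0.89 for RpL34a and 0.93 for RpS14b, and the members most like them were RpS21 (0.99), RpL35A (0.98) and RpS19a (0.98) for RpL34a and RpL26 (0.96), RpL34b (0.95) and RpS3 (0.95) for RpS14b. These values describe 9 points that share libraries and scaling. That of RpS14b with RpS14a also depends on how multi-mapping reads of the nearly identical copies were counted, which is not given. RpL34a was higher in induced Grh than in wild type at 100 µM by 0.72 ± 0.05 on the log2 scale (adjusted p = 1.19e-08), and RpS14b by 0.76 ± 0.07 (adjusted p = 1.27e-07).

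RpL24-like and RpLP0-like, the assembly-factor relatives, had correlations of 0.58 and 0.41 with RpL24 and RpLP0. The value for RpL24 carries the limit of its shared bases given above. RpL24-like had 480 and 491 CPM in untreated wild type and 366 and 363 CPM at 1000 µM copper, the lowest of all groups. It was higher in induced Zld than in wild type at 1000 µM by 0.63 ± 0.08 (adjusted p = 0.000321) and in induced Grh than in wild type at 100 µM by 0.65 ± 0.05 (adjusted p = 5.14e-08). RpLP0-like varied little, from 90.5 to 123.7 CPM over the 18 libraries, and was highest in induced Zld with 118 and 124 CPM. It rose there against untreated Zld by 0.26 ± 0.07 (adjusted p = 0.0101). RpS15Ab also varied little, from 50.3 to 70.5 CPM, and its correlation with RpS15Aa was 0.03. It differed between induced Grh and wild type at 100 µM by 0.26 ± 0.06 (adjusted p = 0.00166), a call lost with library size alone (adjusted p = 0.194). EdgeR did not call it in the untreated or the induced Zld line against wild type, but with library size alone it was lower in both, by log2 differences of -0.22 and -0.22 (adjusted p = 0.0254 and 0.0282).

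RpS19b moved opposite to RpS19a in the Grh line. Its libraries had 25.3 and 25.5 CPM in untreated wild type, 7.78 and 9.41 CPM in untreated Grh and 7.31 and 7.63 CPM in induced Grh. In untreated Zld it had 19.0 and 20.7 CPM and in induced Zld 39.8 and 34.6 CPM. The 4 Grh libraries were below the other 14, and the 2 induced Zld libraries above all others. RpS19b was lower in untreated Grh than in untreated wild type by a log2 difference of -1.45 ± 0.11 (adjusted p = 3.84e-08), where RpS19a was higher by 0.53. In induced Zld it was higher than in wild type at 1000 µM by 1.08 ± 0.11 (adjusted p = 4.44e-05). Against its own main gene, it made up 0.566% to 3.66% of the pair's level per kilobase. The Pearson correlation with RpS19a over 9 group means was -0.37, and the members most like it were RpL35 (0.76), RpS10a (0.75) and RpLP0-like (0.48).

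The calls of RpS19b in both Zld comparisons, in both Grh comparisons with wild type and in the Zld interaction held in every alternative run and whichever library was left out. The difference between the Grh and Twi effects (-0.85 ± 0.25, adjusted p = 0.0115) was lost without replicate 2 of wild type at 100 µM (-0.47 to -1.14 over the libraries left out) or of induced Twi. The Zld effect exceeded the Grh effect by 2.29 ± 0.25 (adjusted p = 2.51e-06) and the Twi effect by 1.44 ± 0.23 (adjusted p = 0.000278). Some germline markers were also called in comparisons where RpS19b was, with 5 of 9 tested. In untreated Grh against untreated wild type edgeR called 3 of 5 tested germline markers lower and 0 higher (1 and 0 by DESeq2, 3 and 0 unadjusted). Of all tested genes 12% were lower and 11.7% higher there. In induced against untreated Zld it called 2 higher and 0 lower (2 and 0 by DESeq2 and unadjusted), where 23% of all tested genes were higher and 20.1% lower. The summed level of all 9 was 63.8 ± 9.12 CPM in untreated Grh and 108.5 ± 4.44 CPM in untreated wild type, and 79.8 ± 4.83 CPM in untreated and 79.7 ± 1.44 CPM in induced Zld (SD, n = 2). Most of each sum was aub, at 58.6 CPM in untreated Grh and 100.1 CPM in untreated wild type. It was at 72.9 CPM in untreated and 66.7 CPM in induced Zld, so the sums say little of the other markers. The part of the germline markers in the result was not tested.

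RpS5b, known from the female germline, had few reads except at 1 dose of copper. It had 133 and 178 reads (8.60 and 8.15 CPM) in wild type at 100 µM, against 17 and 16 reads (0.918 and 0.929 CPM) in untreated wild type. In the other 14 libraries it had 4 to 81 reads, the most in replicate 2 of induced Twi with 3.49 CPM. The 2 libraries at 100 µM were thus above all 16 others, whereas those at 40 µM, with 0.560 and 1.34 CPM, and those at 1000 µM, with 0.425 and 0.602 CPM, were not. The log2 change at 100 µM was 3.14 ± 0.37 (adjusted p = 1.97e-05), and it was called whichever of the 4 libraries was left out. Its main gene RpS5a had 2054 and 2122 CPM untreated and 1698 and 1776 CPM at 100 µM. Induced Grh, with 27 and 4 reads, was lower than wild type at 100 µM by a log2 difference of -3.06 ± 0.37 (adjusted p = 2.25e-05). The summed germline markers, mostly aub, were at 104.6 ± 3.05 CPM at 100 µM and 108.5 ± 4.44 CPM untreated (SD, n = 2). Of 5 tested, edgeR called 1 higher and 0 lower, with 1 and 1 at an unadjusted p under 0.05 and 0 and 0 by DESeq2. Among all tested genes 25.4% were higher and 27% lower. In induced Zld, RpS5b had 19 and 22 reads against 7 and 10 in wild type at 1000 µM. That difference of 1.51 ± 0.41 (adjusted p = 0.0162) was lost whichever of the 4 libraries was left out, by DESeq2 and in the fit of all 18 libraries.

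RpS10a had 61 and 39 reads (3.30 and 2.26 CPM) in untreated wild type. It had 26 and 18 reads (0.910 and 0.890 CPM) at 40 µM, 6 and 5 reads (0.388 and 0.229 CPM) at 100 µM and 32 and 47 reads (1.94 and 2.83 CPM) at 1000 µM copper. The Grh line had 1 and 5 reads untreated and 5 and 0 reads induced. The Zld line had 1.05 and 1.54 CPM untreated and 2.28 and 1.69 CPM induced, and induced Twi had 1.77 and 2.97 CPM. All libraries of wild type at 40 and 100 µM, of the Grh line and of untreated Zld were below both untreated wild type libraries. The difference of untreated Zld was not called (-0.96 ± 0.34, adjusted p = 0.0676). The log2 change was -1.57 ± 0.37 at 40 µM (adjusted p = 0.0149) and -3.23 ± 0.49 at 100 µM (adjusted p = 3.58e-05), and it differed by -3.96 ± 0.55 in untreated Grh (adjusted p = 4.63e-05). The call at 40 µM was lost without replicate 1 of untreated wild type. RpS10b, its main gene, had 2023 and 2063 CPM in untreated wild type and 2465 and 2552 CPM in untreated Grh. In the interaction of the Grh line with copper RpS10a had 3.09 ± 1.20 (adjusted p = 0.0477). With so few reads this value was -1.42 without replicate 1 of induced Grh and at most 4.36, and the call was also lost without replicate 1 of untreated wild type or untreated Grh, without either library at 100 µM, by DESeq2 and with library size alone.

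**Figure D5:**
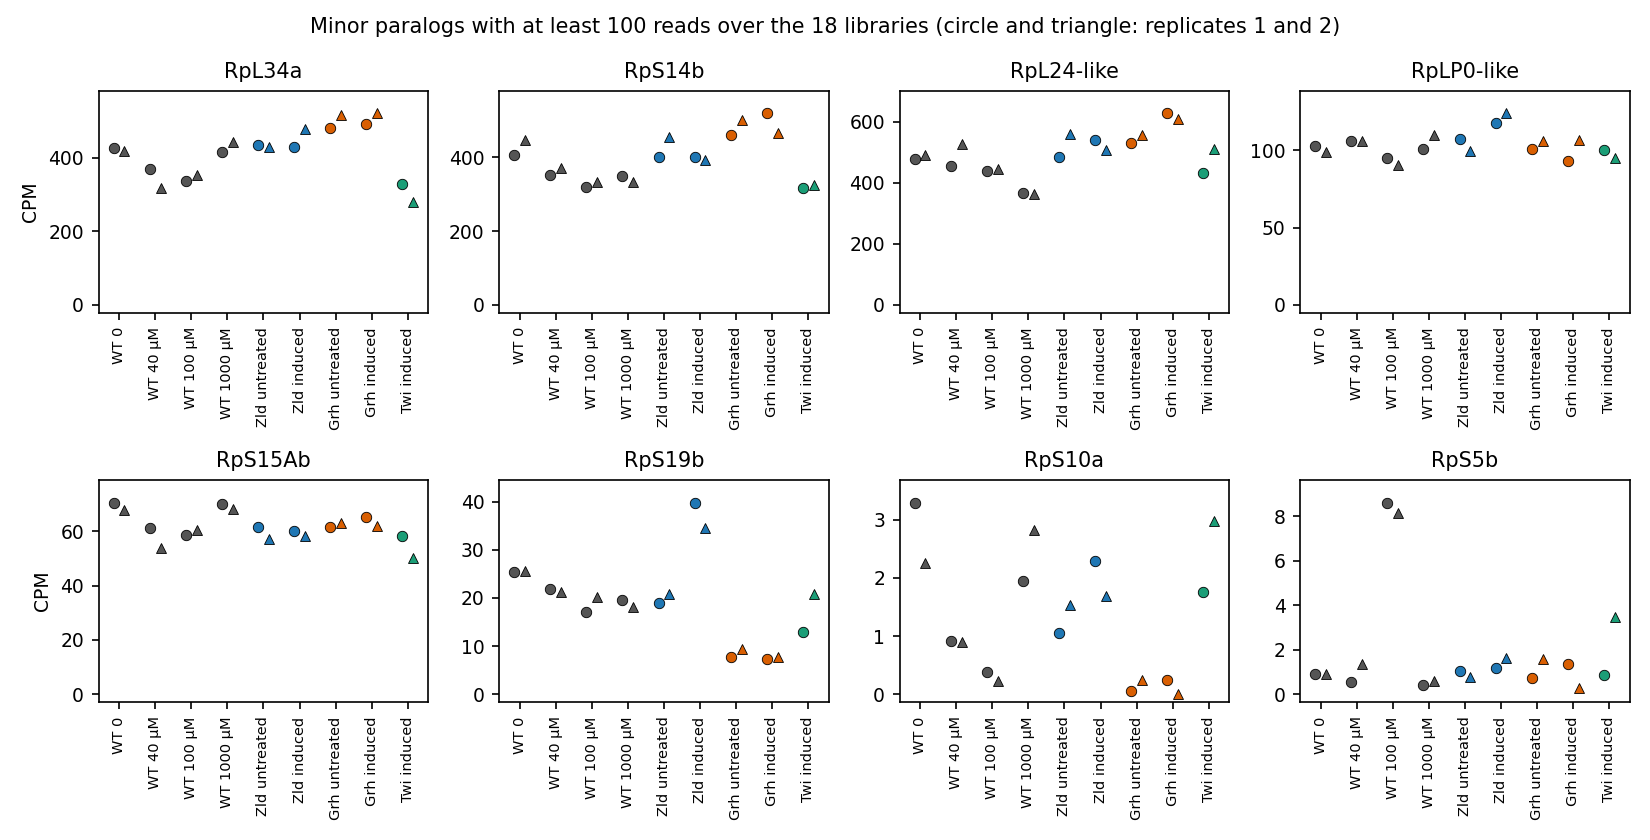
CPM of the 8 minor paralogs with at least 100 reads in all, in 18 libraries of 9 groups, each panel on its own linear axis from 0. RpS5b stands out in wild type at 100 µM (8.60 and 8.15 CPM), RpS19b is highest in induced Zld (39.8 and 34.6 CPM) and lowest in the Grh line, and RpS10a has its lowest values in the 4 libraries of that line and in both at 100 µM.

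The ribosomal proteins whose symbols lack the prefix were described separately. These are sta, which encodes the small-subunit protein RpSA, and Rack1, a scaffold on the small subunit. At 100 µM copper, wild type cells had log2 changes of -0.39 for sta and -0.27 for Rack1 (adjusted p = 0.00185 and 0.00866). In induced Grh against wild type at 100 µM they were higher by 0.81 ± 0.09 and 0.76 ± 0.09 (adjusted p = 1.43e-06 and 1.38e-06).

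Genes that make or serve ribosomes were counted as 3 lists: 29 ribosome biogenesis genes, 35 translation factors and 20 regulators of translation or of ribosomal protein genes. In wild type at 100 µM, 16 biogenesis genes fell and 1 rose, with a median log2 change of -0.19, where 27% of all tested genes fell and 25.4% rose. Fib, the methyltransferase fibrillarin, fell by 0.48 (adjusted p = 0.000172) and Nph by 0.51 (adjusted p = 5.04e-07). At 40 µM 11 biogenesis genes rose and 1 fell, where 20.8% of all tested genes rose and 19.7% fell. With library size alone 5 rose and 3 fell there. Polr1B, a subunit of RNA polymerase I, rose by 0.67 ± 0.09 (adjusted p = 0.00148). In induced Grh against wild type at 100 µM, 25 biogenesis genes were higher and none lower by edgeR (33.6% and 27.2% of all tested genes), with 25 and 0 at an unadjusted p under 0.05 and 21 and 0 by DESeq2. With library size alone 14 were higher and 2 lower. In untreated Grh, where 11.7% of all tested genes were higher and 12% lower, 12 were higher and none lower (19 and 0 unadjusted, 7 and 0 by DESeq2).

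Translation factors were higher in 23 of 35 genes and lower in none in untreated Grh (11.7% and 12% of all tested genes), with 27 higher and 1 lower unadjusted and 23 and 0 by DESeq2. With library size alone 16 were higher and 2 lower. In wild type at 100 µM 9 rose and 9 fell, near the 25.4% and 27% of all tested genes. The largest changes among them were in eEF1alpha2, a second elongation factor gene (1.83 ± 0.40, adjusted p = 0.000889), in eIF4G1, the initiation scaffold (0.63 ± 0.05, adjusted p = 4.01e-08), and in eEF1beta, which fell by 0.33 (adjusted p = 0.000309). In induced Twi against wild type at 40 µM none of the 3 lists had a called gene. At an unadjusted p under 0.05 the translation factors had 2 higher and 3 lower, the biogenesis genes 0 and 0, and the regulators 1 and 1, and DESeq2 called 1 translation factor in each direction and none of the others.

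The regulators had 13 genes higher and 3 lower in wild type at 100 µM and 1 higher and 13 lower in induced Grh against it, 2 comparisons that share these libraries and in which 25.4% and 27%, and 33.6% and 27.2%, of all tested genes were higher and lower. They had 10 higher and 2 lower in induced Zld against wild type at 1000 µM (19.1% and 17.3% of all tested genes), where the translation factors had 17 higher and 0 lower (22 and 0 unadjusted, 19 and 0 by DESeq2) and the biogenesis genes 16 and 0 (21 and 0 unadjusted, 11 and 0 by DESeq2). Trf2, a relative of the TATA-binding protein that serves ribosomal protein promoters in flies, rose by 1.47 ± 0.08 in wild type at 100 µM (adjusted p = 9.19e-09) and by 2.06 ± 0.14 at 40 µM (adjusted p = 0.000113). In induced Grh it was lower than in wild type at 100 µM by a log2 difference of -1.53 ± 0.07 (adjusted p = 2.2e-11). In untreated Zld it was higher by 1.24 ± 0.09 (adjusted p = 4.21e-06). Myc, a driver of growth and ribosome production, rose by 0.98 ± 0.05 at 100 µM (adjusted p = 2.02e-10), and was higher in untreated Zld by 0.79 ± 0.11 (adjusted p = 0.00146) and in untreated Grh by 0.51 ± 0.05 (adjusted p = 2.24e-06). Dref, a factor at promoters of many growth genes, had log2 changes of -0.41, -0.26 and -0.32 at 40, 100 and 1000 µM copper (adjusted p = 0.00987, 0.000348 and 0.0015).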

How the data were processed

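The authors deposited 3 tables of counts, 1 per factor, which hold whole numbers of reads per gene with no normalization; the untreated wild type columns recur in all 3 and were used once. A further deposited value, in a unit other than counts, is the gene length in bases, used for levels per kilobase. Per the submitters' processing notes, HISAT2 2.1.0, featureCounts, Subread 2.0, DESeq2 and the dm6 build were used. Per the labels, libraries were made from polyA RNA; the strand setting and the treatment of multi-mapping reads are not given in the sources used here. Symbols were joined by gene identifier (17561 matched, 48 not), with positions from Ensembl release 115, whose exon length equals the deposited one in 99.9% of genes.

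Tests used edgeR 4.0.16 in R 4.3.3 (genes kept by filterByExpr, TMM factors, the quasi-likelihood test with robust dispersions and Benjamini-Hochberg adjustment over every gene tested, with calls at an adjusted p under 0.05); SE is the log2 change divided by the root of F. Fits held 6 libraries (3 residual degrees of freedom), 8 (4) or, for differences between factor effects, 18 (9). CPM uses library size alone; correlations over group means used a pseudocount of 0.5 CPM. Alternatives were other scaling, DESeq2 1.42.0, no filter, all libraries in 1 fit, a replicate block and each library left out. The scripts were tested on simulated data. The members and lists were chosen with earlier results of these data known. Of 110 list entries, 2 did not match a gene. Genes were named where they belong to a family, were untested, had the 5 highest or lowest levels (1 of these is not reported here), were among the 3 largest calls per direction in a comparison, or, in the lists, among the 2 largest. DESeq2's Wald test was run on the counts as deposited.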

Additional observations from a re-analysis of the deposited data

Results flagged for a closer look

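The following values were flagged by a test of a difference between lines (edgeR, adjusted p under 0.05). Compared were the effect of copper, or the difference of an induced line from wild type at its copper number. The groups hold 2 libraries each, too few to look for a single library that stands apart.

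The signed log2 difference between the Zld line and wild type was higher with copper than without in 4 ribosomal protein genes. Among them were RpS19b (1.34), RpL24-like (0.43) and RpS9 (0.40). Over all tested genes 5.96% were called in this direction, so the share of the 86 members is near the background. The median of the single and main genes was 0.22, against 0.02 for all tested genes. The call of RpL24-like was kept in 3 and that of RpS9 in 2 of the 8 fits with a library left out, and that of RpS19b in all 8. For the Grh line the signed difference was higher with copper in 67 genes and lower in 1. The values were 0.97 for RpL39, 0.82 for RpS16, 3.09 for RpS10a, -3.56 for RpS5b, 0.40 for sta and 0.35 for Rack1. RpS10a had a mean of 0.150 CPM in the line against 2.78 in wild type untreated, and 0.124 against 0.309 with copper. RpS5b had 1.16 against 0.924 untreated and 0.805 against 8.38 with copper. On these few reads the gap was thus narrower with copper for RpS10a and wider for RpS5b.

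The Zld effect exceeded the Grh effect in 6 genes and was below it in 38. Each effect, as above, includes differences of the line that were present without induction. The log2 differences were 4.66 for RpS5b, 2.29 for RpS19b, 0.41 for RpL21, -0.81 for RpL39, -0.81 for RpS16, -0.70 for RpS19a and -0.44 for sta. The Zld effect exceeded the Twi effect in 65 genes, with 1.44 for RpS19b, 0.79 for RpS27, 0.72 for RpL21 and 0.43 for Rack1. The Grh effect exceeded the Twi effect in 78 genes and was below it in 2, with 1.52 for RpS16, 1.26 for RpS19a, 1.17 for RpL9, 0.86 for sta, 0.70 for Rack1, -0.85 for RpS19b and -4.42 for RpS5b.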

How the results depend on the processing

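Library size alone gave 1 member lower in induced Zld against wild type at 1000 µM, 1 higher in induced against untreated Grh, 4 higher at 100 µM copper, 19 higher and 4 lower in untreated Zld, and 9 in the Zld interaction. RLE factors gave 1 in induced against untreated Grh and 2 in the Zld interaction, and TMM without the ribosomal protein genes gave 2 in the latter. DESeq2 gave 6, 4, 44 and 10 higher in induced against untreated Grh, at 100 µM, in untreated Zld and in the Zld interaction, and 1 lower in Twi. Without a filter, 29 members were lower at 1000 µM, 46 were higher and 1 lower in untreated Zld, 36 were higher in the Zld interaction, 1 was lower in Zld against Twi effects, and Twi had 1 higher and 2 lower. One fit of all 18 libraries gave 0 in induced against untreated Grh, 1 in the Zld and 38 in the Grh interaction, and 1 higher and 2 lower in Twi. The cause was not tested.

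Same-numbered replicates are not stated to be paired, and their deviations correlated at -0.30 to 0.48 over the 10 comparisons. A replicate block gave 1 higher in induced against untreated Grh, 1 higher in Twi, 1 higher at 100 µM and 2 in the Zld interaction. A crossed replicate block, chosen after seeing the data, gave 5 higher and 0 lower in induced against untreated Grh and 68 higher and 2 lower in untreated Grh.

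Leaving out each library moved the counts as follows. Induced Zld against wild type gave 33 to 56 higher, and against untreated Zld 2 to 57 higher and 0 to 10 lower. Induced against untreated Grh gave 0 to 22 higher and 0 to 1 lower, and Twi 0 to 1 lower. Wild type gave 0 to 4 higher and 9 to 41 lower at 40 µM, 1 higher at 100 µM and 1 to 4 lower at 1000 µM. Untreated Zld gave 10 to 71 higher and 0 to 7 lower, and untreated Grh 40 to 66 higher. The Zld interaction gave 1 to 63, the Zld minus Grh effect 3 to 5 higher and 16 to 44 lower, Zld minus Twi 43 to 67 higher, and Grh minus Twi 1 to 3 lower. Reversed single values were eIF4G1 in induced against untreated Zld (-0.18) and RpL22 in untreated Zld (-0.21), both without replicate 2 of untreated Zld, and RpS10a in the Grh interaction (-1.42 without replicate 1 of induced Grh). Their highest values with a library left out were 0.20, 0.36 and 4.36.

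Relative to the reads outside the ribosomal protein genes, the summed level was 24.7% in untreated wild type, 20.5%, 19.8% and 22.2% at 40, 100 and 1000 µM, 27.6% and 29.4% in untreated and induced Zld, 29.7% and 31.2% in untreated and induced Grh, and 20.02% in Twi. With TMM factors it was 19.2% in untreated wild type, 15.9% and 17.5% at 100 and 1000 µM, 23.2% in induced Zld, 24.0% in untreated Grh and 16.3% in Twi. RpS5b, RpS10a and the 6 untested paralogs are limited by their few reads.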
